A study of Drosophila melanogaster with 11 samples.

Results

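Nascent RNA was compared between *Drosophila* Kc cells depleted of *M1BP* by RNA interference and mock-treated Kc cells. The comparison used 6 of the 11 samples of the series, namely 4 mock libraries (replicates 1 to 4) and 2 *M1BP* knockdown libraries (replicates 2 and 3), all taken from columns of the gene count table whose heading occurs once and matches 1 sample. Kc cells are an embryonic, hemocyte-like line. The *M1BP* knockdown cells received 20 µg of dsRNA against *M1BP*, and the mock cells received no RNA, so that an effect of dsRNA itself and an effect of losing *M1BP* cannot be told apart. All cells were grown at 25 °C for 5 days after transfection and then given 0.2 mM 5-ethynyl uridine (EU) for 1 h. EU is a uridine analog that is built into RNA during synthesis, so captured EU-RNA represents RNA made in that window. The study describes its RNA-seq replicates as biological. The labels do not say whether these libraries came from separate cultures, and p-values measure the spread between them. In bulk libraries, fewer cells of a type and less RNA per cell cannot be told apart.

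M1BP (Motif 1 Binding Protein) is a zinc-finger protein that binds Motif 1, a core promoter element found mainly at constitutively active genes, where it is known as a transcriptional activator. It occupies promoters with paused RNA polymerase II and, together with TRF2, those of ribosomal protein genes. It also associates with the proteins of the *gypsy* insulator complex, so that its loss could be followed at housekeeping promoters, at regulated genes or at both. In this comparison the question was which newly made RNAs rose or fell, grouped by what the genes do.

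The targeted gene was lower in both knockdown libraries. *M1BP* (FBgn0037621, dm6 chr3R:8729790-8731698) measured 42.7, 43.4, 52.6 and 52.2 CPM in mock libraries and 21.1 and 31.4 CPM after knockdown. CPM is the count per 1000000 reads assigned to genes, with each library total multiplied by its TMM scaling factor (0.946 to 1.08). Both knockdown libraries lay below every mock library, with a log2 fold change of -0.86 ± 0.20 (SE, edgeR adjusted p = 0.0145). Nascent *M1BP* RNA thus remained at 26.2 ± 7.28 CPM (SD, n = 2) against 47.7 ± 5.43 CPM (SD, n = 4). RNA interference acts mainly on finished mRNA, and protein levels were not measured in these libraries. Its insulator partners gave other values. *Cp190*, which encodes the shared scaffold of insulator complexes, measured 328, 364, 444 and 428 CPM in mock libraries and 425 and 360.0 CPM after knockdown, and the groups overlapped. *su(Hw)*, whose product binds the *gypsy* insulator DNA, measured 68.1, 70.0, 82.2 and 81.9 CPM in mock libraries and 64.8 and 72.7 CPM after knockdown, also with overlap.

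Total counts were 24944604 to 29680851 per mock library and 13181160 and 11312004 in knockdown replicates 2 and 3, so the knockdown values rest on fewer reads. Before TMM scaling, a gene with 3 counts stood at 0.101 to 0.120 CPM in mock libraries and 0.228 and 0.265 CPM in the knockdown libraries. Correlation of log2 CPM across genes, which are not independent replicates, was 0.961 between the knockdown libraries. It was 0.997 between mock replicates 1 and 2, 0.996 between 3 and 4, and 0.988 to 0.993 between these pairs. Between knockdown and mock libraries it was 0.941 to 0.950. The labels do not say which mock libraries were made alongside which knockdown libraries. Markers of the hemocyte lineage were present, with the GATA factor *srp* at 3341, 3411, 5455 and 4561 CPM in mock libraries and 2874 and 2275 CPM after knockdown. The neuronal gene *elav* was also detected, at 73.7, 89.1, 121 and 124 CPM in mock libraries and 139.6 and 174 CPM after knockdown, and the active-zone gene *brp* at 321, 325, 382 and 376 CPM in mock libraries and 285 and 329.7 CPM after knockdown. The phagocytic receptor genes *NimC1* and *eater*, by contrast, stayed at or below 1.603 CPM in every library.

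Among 9511 genes with enough counts to test, 1574 (16.5%) were higher and 1097 (11.5%) lower after *M1BP* knockdown at an edgeR adjusted p below 0.05. The median log2 fold change over all of them was -0.03. At least a 2-fold change was found for 1269 of the genes that rose, or 820 of those past the filter in mock libraries, and for 373 of those that fell. Genes that rose and fell also came from different levels. Of the genes that rose, 1099 had a mock mean below 10 CPM, whereas 888 of those that fell had a mock mean of at least 10 CPM. A total of 710 genes entered the test only because the knockdown libraries raised them above the expression filter, and 449 of these were called higher. These 449 are part of the 1099 that rose from below 10 CPM. Among genes past the filter in mock libraries, 27.3% rose and 4.62% fell at mock means of 0.5 to 2 CPM. At 10 to 50 CPM the shares were 6.87% and 15.8%. Among the 8801 genes that passed the filter in mock libraries alone, 1125 rose (12.8%) and 1097 fell (12.5%). These shares, and the 16.5% and 11.5% of all tested genes, are the background for the counts of lists and classes below. At an unadjusted p below 0.05 the shares of all tested genes were 21.8% higher and 18.8% lower, and DESeq2 called 12.5% and 9.11% of 13992 genes. At the extremes, 66 of the genes that fell had 0 counts in both knockdown libraries, and 18 of those that rose had 0 counts in every mock library. Leaving out mock replicate 4 lowered the number that fell to 582, and leaving out mock replicate 2 lowered it to 717. Fits without a knockdown library, here and below, have 1 library in that arm, which is assumed to vary like the mock libraries.

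**Figure D1:**
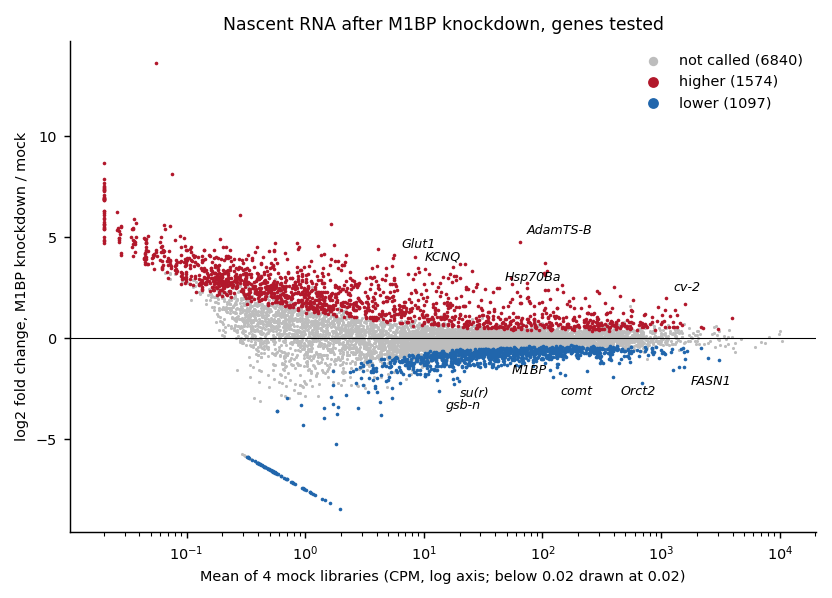
Each point is 1 of 9511 tested genes, with the mean of 4 mock libraries in CPM on a log axis and the log2 fold change of *M1BP* knockdown over mock on the vertical axis. Red points (1574) were called higher and spread mostly over low mock levels, and blue points (1097) were called lower and lie mostly at 10 CPM and above. The red points include 449 genes that entered the test only through the knockdown libraries.

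Motif 1 sequences are shown for genes on both sides of the comparison, because Motif 1 is the element that M1BP binds. They come from the study's list of Motif 1 matches near gene starts in dm6, of which 1999 entries were read and 4309 further entries were not used here. The 8 letters GGTCACAC, in capitals, were present at 535 of the 1290 distinct sites among those read, and genes were taken by the smallest p among called genes with this core. The first set fell after knockdown.
Rhau: gctgcGGTCACACta
RIOK2: ggaacGGTCACACtg
Trs20: gatttGGTCACACtg
Nhe3: cgtgcGGTCACACtg
dia: gctgcGGTCACACta
The second set rose after knockdown.
Dab: tagatGGTCACACtg
DnaJ-1: cttacGGTCACACtg
mdlc: cacgcGGTCACACtg
rdo: ccaaaGGTCACACtg
Src64B: tccgcGGTCACACtg
CG2991: aacgcGGTCACACtg
*Rhau* and *dia* are divergently transcribed neighbors on chromosome 2L and share 1 site, 161 bases upstream of the *Rhau* start and 2 bases inside *dia*. The genes of the second set have their match further from the gene start, 259 to 811 bases upstream, except for *CG2991*. A match is a description of the letters and not evidence of binding. Of 1406 tested genes with a match that was read, 107 rose and 181 fell (7.61% and 12.9%). Within 100 bases of the gene start, 41 of 706 rose and 91 fell (5.81% and 12.9%). The share that fell was thus close to the 11.5% of all tested genes, and the share that rose was below 16.5%. Past the filter in mock libraries, 5.54% of 704 genes with a match within 100 bases rose and 12.9% fell, against 12.8% and 12.5% of all genes. At mock means of 10 to 50 CPM, 5 of 252 genes with a match within 100 bases rose and 30 fell, against 173 and 360 of 2221 genes without a match that was read. At 50 to 200 CPM the shares were closer, with 7.03% higher and 14.1% lower of 256 genes with such a match against 8.11% and 16.3% of 1504 without. No test was made, because the list was read only in part.

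*Rhau*, a helicase that unwinds four-stranded nucleic acid structures, measured 55.5, 60.8, 56.7 and 57.6 CPM in mock libraries and 24.5 and 30.4 CPM after knockdown. Both knockdown libraries were below all mock libraries, with a log2 fold change of -1.07 ± 0.16 (SE, edgeR adjusted p = 0.00203). The ribosome maturation kinase gene *RIOK2*, the sodium-proton exchanger gene *Nhe3* and the formin gene *dia* had log2 fold changes of -1.06, -1.003 and -0.82. In the other direction, *Dab*, an adaptor of tyrosine kinase signaling, measured 79.1, 82.9, 74.8 and 73.5 CPM in mock libraries and 318 and 234 CPM after knockdown. Its knockdown values were well above all mock values, with a log2 fold change of 1.83 ± 0.14 (SE, edgeR adjusted p = 1.11e-04). The kinase gene *Src64B* rose by 0.96 and the zinc-finger gene *mdlc* by 0.90 on the log2 scale.

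The largest increases among well-counted genes were found at genes with low or moderate nascent RNA in mock cells. *AdamTS-B* (FBgn0029791, dm6 chrX:5698557-5708633), a secreted metalloprotease of the extracellular matrix, measured 70.5, 65.2, 60.4 and 60.1 CPM in mock libraries and 2179.5 and 1321 CPM after knockdown. Every knockdown value was far above the mock range, with a log2 fold change of 4.77 ± 0.20 (SE, edgeR adjusted p = 7.96e-06). *Oamb*, a receptor for octopamine, the insect counterpart of noradrenaline, measured 1.996, 1.82, 1.13 and 2.08 CPM in mock libraries and 33.4 and 51.7 CPM after knockdown, with a log2 fold change of 4.59 ± 0.28 (SE, edgeR adjusted p = 3.03e-05). *Glut1*, a glucose transporter, measured 5.54, 5.24, 5.70 and 5.94 CPM in mock libraries and 75.1 and 119 CPM after knockdown. Mock libraries agreed closely for *Glut1*, and the log2 fold change of 4.11 ± 0.20 (SE, edgeR adjusted p = 1.80e-05) was far larger than their spread. *lncRNA:let7C*, the host transcript of the let-7 microRNA cluster, measured 1.44, 1.29, 1.06 and 1.31 CPM in mock libraries and 16.5 and 44.2 CPM after knockdown. Its knockdown replicates differed from each other by more than the mock libraries did, and both were above mock, with a log2 fold change of 4.56 ± 0.36 (SE, edgeR adjusted p = 1.12e-04). The ABC transporter gene *white* (*w*) measured 1.04, 1.26, 1.52 and 1.93 CPM in mock libraries and 37.1 and 14.8 CPM after knockdown, with a log2 fold change of 4.18 ± 0.38 (SE, edgeR adjusted p = 1.82e-04). *AkhR*, the receptor for the adipokinetic hormone that mobilizes fat, had 3, 0, 2 and 1 counts in mock libraries and 10999 and 6671 counts after knockdown. No fold is given for *AkhR*, since the mock counts are at or below the floor of 3 counts.

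Among genes that averaged 100 or more normalized counts, the largest decreases were smaller than the largest increases and included genes of metabolism and membrane traffic. *gsb-n*, a Pax-family transcription factor, measured 14.5, 13.2, 12.0 and 13.6 CPM in mock libraries and 1.603 and 2.74 CPM after knockdown. Knockdown values were a small part of mock values, with a log2 fold change of -2.62 ± 0.29 (SE, edgeR adjusted p = 4.81e-04). *su(r)*, which encodes dihydropyrimidine dehydrogenase of pyrimidine breakdown, measured 18.6, 18.8, 16.5 and 16.7 CPM in mock libraries and 3.93 and 4.66 CPM after knockdown, with a log2 fold change of -2.04 ± 0.21 (SE, edgeR adjusted p = 4.00e-04). *comt*, the NSF ATPase that recycles membrane fusion complexes, measured 126, 130.1, 112 and 121 CPM in mock libraries and 27.9 and 36.4 CPM after knockdown. These libraries did not overlap, and the log2 fold change of -1.93 ± 0.16 (SE, edgeR adjusted p = 1.34e-04) was several times its error. *Orct2*, an organic cation transporter, measured 355, 356, 445 and 424 CPM in mock libraries and 125 and 81.1 CPM after knockdown, with a log2 fold change of -1.94 ± 0.21 (SE, edgeR adjusted p = 4.55e-04). *Atg12*, a ubiquitin-like protein of autophagosome formation, measured 5.29, 5.54, 8.18 and 6.25 CPM in mock libraries and 1.20 and 1.46 CPM after knockdown, with a log2 fold change of -2.24 ± 0.35 (SE, edgeR adjusted p = 0.00257). *Trs20*, a subunit of the TRAPP tethering complex, carries 1 of the Motif 1 sequences above and measured 9.57, 8.96, 11.2 and 11.3 CPM in mock libraries and 3.45 and 2.104 CPM after knockdown, with a log2 fold change of -1.87 ± 0.29 (SE, edgeR adjusted p = 0.00257). *Lsp1beta*, a larval storage protein gene, measured 19.4, 16.2, 18.2 and 18.6 CPM in mock libraries and 6.97 and 0.366 CPM after knockdown, where replicate 3 had 4 counts. Its log2 fold change of -2.27 ± 0.68 (SE, edgeR adjusted p = 0.0352) was not called when any 1 mock library was left out (adjusted p 0.0525 to 0.0702).

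**Figure D2:**
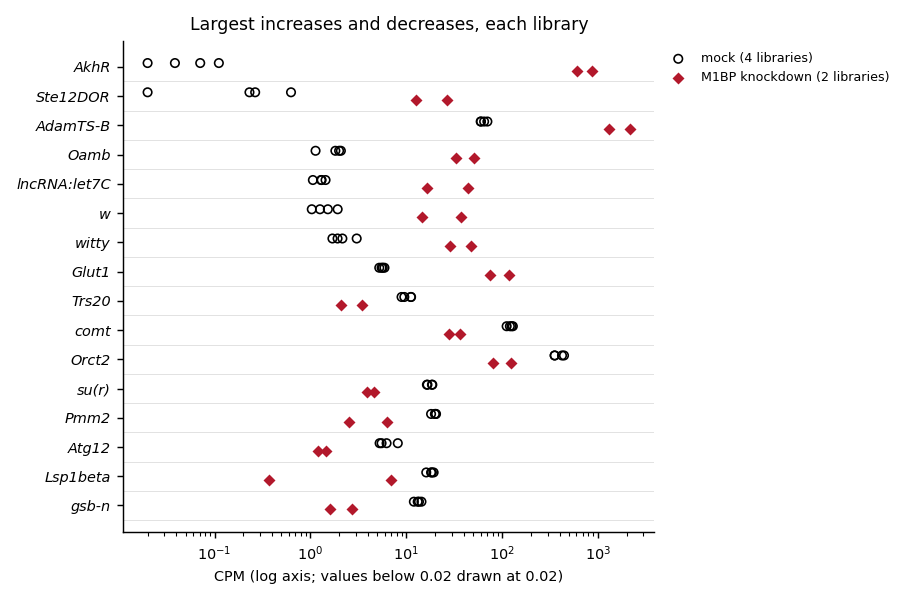
Levels in CPM on a log axis for the 8 largest increases and the 8 largest decreases among called genes that averaged 100 or more normalized counts and were chosen to have both knockdown libraries outside the mock range, with open circles for 4 mock libraries and diamonds for 2 knockdown libraries. The gap between knockdown libraries is widest for *Lsp1beta* (6.97 and 0.366 CPM).

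Most heat shock genes rose. Of 25 tested members of a list of heat shock proteins and chaperones, 16 rose and 2 fell, with a median log2 fold change of 1.598 against -0.03 over all genes. Counting only the 22 members that passed the filter in mock libraries, 14 rose and 2 fell, with a median of 1.36. With any 1 library left out 15 or 16 were higher. *Hsp70Ba*, an inducible cytosolic chaperone, measured 47.2, 39.4, 40.6 and 39.2 CPM in mock libraries and 228 and 237 CPM after knockdown. All knockdown values were above all mock values, with a log2 fold change of 2.48 ± 0.13 (SE, edgeR adjusted p = 2.39e-05). *Hsp70Aa* measured 25.5, 19.9, 24.6 and 21.4 CPM in mock libraries and 125 and 138 CPM after knockdown, with a log2 fold change of 2.53 ± 0.15 (SE, edgeR adjusted p = 2.89e-05). The Hsp70 copies are nearly identical in sequence, so reads may be split or lost between them and their separate values are uncertain. The list counts and medians above include each copy as a separate member. *DnaJ-1*, the Hsp40 cochaperone, rose from a high level, with 1002, 1013, 1039 and 1039 CPM in mock libraries and 2429.5 and 2085 CPM after knockdown and a log2 fold change of 1.14 ± 0.13 (SE, edgeR adjusted p = 5.64e-04). The other members that rose were *Hsp110*, *Hsp23*, *Hsp26*, *Hsp27*, *Hsp60D*, *Hsp67Bc*, *Hsp68*, *Hsp70Ab*, *Hsp70Bb*, *Hsp70Bbb*, *Hsp70Bc*, *Hsp83* and *stv*, named here to account for the count. The mitochondrial chaperonin gene *Hsp60B* had 12, 16, 24 and 14 counts in mock libraries and 0 in both knockdown libraries. It was at least 2.23-fold lower against a floor of 3 counts per library, where the floor is taken before TMM scaling. None of the 8 subunits of the chaperonin CCT was called by edgeR (1 higher at an unadjusted p below 0.05), and DESeq2 called 1 higher.

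Genes of the endoplasmic reticulum stress response moved both ways. Of 15 genes of the unfolded protein response and ATF4 pathway, 4 rose and 5 fell, and the number that fell was 3 without knockdown replicate 3 or without mock replicate 2. *Hsc70-3*, the BiP chaperone of the endoplasmic reticulum, measured 1320.0, 1418, 1861 and 1748 CPM in mock libraries and 824 and 704 CPM after knockdown. Knockdown libraries were below all mock libraries, with a log2 fold change of -1.05 ± 0.19 (SE, edgeR adjusted p = 0.00465). *Xbp1*, the transcription factor of the IRE1 branch, measured 2357, 2213, 2897 and 2409.5 CPM in mock libraries and 1437 and 1080.1 CPM after knockdown, with a log2 fold change of -0.97 ± 0.18 (SE, edgeR adjusted p = 0.00602). *Gp93*, the Hsp90 of the endoplasmic reticulum, fell by 0.88 on the log2 scale. Other members rose. *trbl*, a pseudokinase that inhibits proliferation, measured 581, 631, 552 and 562 CPM in mock libraries and 1471 and 2756 CPM after knockdown. Both knockdown values exceeded all mock values, with a log2 fold change of 1.86 ± 0.22 (SE, edgeR adjusted p = 6.29e-04). *crc*, the fly ATF4, measured 425, 416, 535 and 518 CPM in mock libraries and 813 and 739 CPM after knockdown, with a log2 fold change of 0.71 ± 0.15 (SE, edgeR adjusted p = 0.00923). *Gadd45* and *Atf6* had log2 fold changes of 0.90 and 0.94.

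Fatty acid synthase and its regulators fell. Of 18 genes of fatty acid and sterol pathways, 6 fell and 2 rose, while 3 fell without knockdown replicate 3 or mock replicate 4 and 1 rose without knockdown replicate 3. *FASN1*, fatty acid synthase, measured 1387, 1397, 1807 and 1630.2 CPM in mock libraries and 676 and 477 CPM after knockdown. Its knockdown values were under all mock values, with a log2 fold change of -1.43 ± 0.20 (SE, edgeR adjusted p = 0.00159). *SREBP*, the transcription factor that drives lipid synthesis genes, measured 1689, 1629, 1512 and 1434 CPM in mock libraries and 983 and 944 CPM after knockdown, with a log2 fold change of -0.70 ± 0.14 (SE, edgeR adjusted p = 0.00774). *SCAP*, its escort protein, measured 535, 512, 552 and 538 CPM in mock libraries and 349 and 346 CPM after knockdown. Agreement between libraries within each group was close, with a log2 fold change of -0.62 ± 0.12 (SE, edgeR adjusted p = 0.00738). The isoprenoid enzyme gene *Fpps* rose, by 0.68 on the log2 scale.

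**Figure D3:**
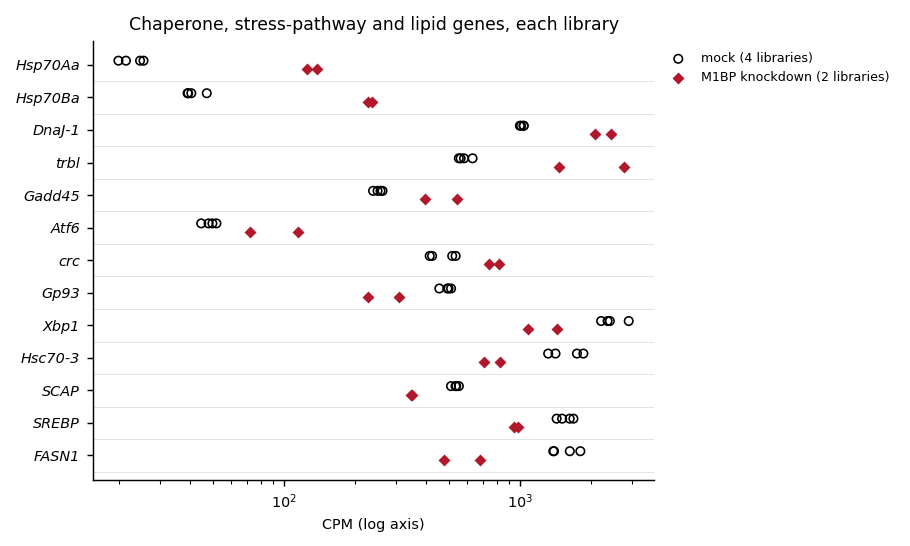
Levels in CPM on a log axis for 13 chaperone, stress-pathway and lipid genes, with open circles for 4 mock libraries and diamonds for 2 *M1BP* knockdown libraries. The knockdown values of the Hsp70 genes, *DnaJ-1*, *trbl*, *Gadd45*, *Atf6* and *crc* lie to the right of all mock values, and those of *Gp93*, *Xbp1*, *Hsc70-3*, *SCAP*, *SREBP* and *FASN1* to the left.

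Genes of the gene expression machinery moved little and in opposite directions. Of 84 tested cytosolic ribosomal protein genes, 18 rose and 0 fell by edgeR (36 and 0 at an unadjusted p below 0.05), with a median log2 fold change of 0.38. DESeq2 called 30 higher and 0 lower. The count that rose depended on single libraries, being 6 without knockdown replicate 2, 34 without knockdown replicate 3 and 9 without mock replicate 4, and 1 fell without knockdown replicate 2. *RpL30*, a protein of the large subunit, measured 129, 138, 117 and 119.5 CPM in mock libraries and 290.2 and 249.6 CPM after knockdown. It stayed called in every alternative fit, with a log2 fold change of 1.10 ± 0.13 (SE, edgeR adjusted p = 6.20e-04). Mitochondrial ribosomal protein genes did not share this shift, with 2 higher and 4 lower of 72 and a median of -0.06, which was 0.02 under upper-quartile scaling and 0.01 with at least 10 counts required in every library. Within that list *mRpS26* rose by 1.58 and *mRpS6* fell by 1.40 on the log2 scale. The counts were 5 higher and 10 lower without knockdown replicate 2, 4 and 7 without knockdown replicate 3, and 1 higher without mock replicate 2 or 4.

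Several subunits of RNA polymerases fell. Of 28 tested subunits, 7 fell and 0 rose by edgeR (12 and 0 at an unadjusted p below 0.05), with a median log2 fold change of -0.48, and DESeq2 called 8 lower and 0 higher. The number that fell was 3 without mock replicate 4 and 4 without mock replicate 2, and 1 rose without knockdown replicate 2. *Polr1B*, the second largest subunit of RNA polymerase I, measured 49.6, 55.9, 48.8 and 51.2 CPM in mock libraries and 27.3 and 22.4 CPM after knockdown. Both knockdown libraries were below all mock libraries, with a log2 fold change of -1.05 ± 0.16 (SE, edgeR adjusted p = 0.00247). *Polr1E*, another RNA polymerase I subunit, measured 29.3, 29.9, 48.7 and 43.0 CPM in mock libraries and 12.4 and 17.6 CPM after knockdown, with a log2 fold change of -1.33 ± 0.28 (SE, edgeR adjusted p = 0.00867). The others that fell were *Polr1H*, *Polr2E*, *Polr2L*, *Polr3C* and *Polr3D*, which belong to RNA polymerases I, II and III. Of 27 Mediator subunits, which link activators to RNA polymerase II, 6 fell. The number was 3 without mock replicate 4, and 1 subunit rose without knockdown replicate 2. Among those that fell were *kto*, the fly MED12, and *MED30*, with log2 fold changes of -0.70 and -0.90. Of 17 cytosolic aminoacyl-tRNA synthetase genes, 4 fell and 0 rose by edgeR (0 higher at an unadjusted p below 0.05, and 0 by DESeq2). *ThrRS*, which charges threonine tRNA, measured 317, 293, 337 and 305 CPM in mock libraries and 181 and 162 CPM after knockdown, with a log2 fold change of -0.87 ± 0.13 (SE, edgeR adjusted p = 0.00236). Only 1 of these synthetases fell without knockdown replicate 2, and 2 without mock replicate 2 or 4. None of 14 genes for promoter-proximal pausing and elongation factors was called by edgeR (1 higher and 1 lower at an unadjusted p below 0.05), DESeq2 called 1 higher, and 1 rose without knockdown replicate 3. Of 25 nucleoporin genes 2 fell (8%, below the 11.5% of all genes), or 1 when any 1 mock library was left out. Neither was called without knockdown replicate 3, and 2 rose without knockdown replicate 2.

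Small RNA pathway genes fell more often than they rose. Of 31 tested members, 10 fell and 1 rose, with a median log2 fold change of -0.33, and 6 fell without mock replicate 4. The member that rose, *tej*, passed the filter only through the knockdown libraries and was not called without mock replicate 3 or 4, while 2 members rose without knockdown replicate 2. *del* (*deadlock*), which acts with Rhino at piRNA source loci in the germline, measured 195, 191, 196 and 204.9 CPM in mock libraries and 120.3 and 82.2 CPM after knockdown. Knockdown values were below all mock values, with a log2 fold change of -0.96 ± 0.17 (SE, edgeR adjusted p = 0.00429). *fs(1)Yb*, a Tudor-domain protein of piRNA biogenesis in somatic gonadal cells, measured 9.39, 10.5, 5.07 and 7.95 CPM in mock libraries and 2.57 and 2.65 CPM after knockdown, with a log2 fold change of -1.66 ± 0.36 (SE, edgeR adjusted p = 0.0102). Of the chromatin lists, heterochromatin proteins had 2 of 13 lower (15.4%, near the 11.5% of all genes). The number was 1 when mock replicate 1, 2 or 3 was left out, and neither was called without mock replicate 4. Of 28 Polycomb and Trithorax group genes 2 fell (7.14%, below that of all genes), or 1 without mock replicate 2 or 4. The insulator list had 1 of 15 members lower by edgeR (3 at an unadjusted p below 0.05), while DESeq2 called 2 lower. That member was *CTCF*, which measured 69.5, 67.2, 79.9 and 64.7 CPM in mock libraries and 53.9 and 41.1 CPM after knockdown, and its log2 fold change of -0.56 ± 0.17 (SE, edgeR adjusted p = 0.0336) was not called when any 1 mock library or knockdown replicate 3 was left out (adjusted p up to 0.111). Over the list, 2 fell without knockdown replicate 2 and 4 without knockdown replicate 3. None of 16 cohesin and condensin genes was called by edgeR (5 lower at an unadjusted p below 0.05), and DESeq2 called 1 lower. Without knockdown replicate 2, 1 of them rose and 1 fell, and without replicate 3, 2 fell.

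Cell cycle genes changed singly. Of 40 DNA replication genes 2 rose (5%) and 3 fell (7.5%), both below the shares of all genes, with 1 higher when any 1 mock library was left out. Of 35 mitosis genes 5 rose (14.3%) and 3 fell (8.57%), near the shares of all genes. Among these, 1 rose without mock replicate 2 or 4, 2 without mock replicate 1 or 3, and 3 without knockdown replicate 2, while 1 fell without mock replicate 4 and 5 without knockdown replicate 2. The GINS complex, which opens DNA at the replication fork, had members on both sides. *Psf3* measured 32.5, 33.0, 30.04 and 30.01 CPM in mock libraries and 53.9 and 87.0 CPM after knockdown, with a log2 fold change of 1.17 ± 0.19 (SE, edgeR adjusted p = 0.00316). *Sld5* measured 8.87, 7.43, 6.38 and 6.98 CPM in mock libraries and 2.48 and 3.11 CPM after knockdown, with a log2 fold change of -1.41 ± 0.28 (SE, edgeR adjusted p = 0.00768). The kinase gene *Cdk1*, which drives entry into mitosis, fell by 1.25 on the log2 scale, while *stg*, the phosphatase that activates Cdk1, rose by 0.95. Among apoptosis and DNA damage genes, 4 of 25 rose (16.0%, near that of all genes) and 1 fell. With either knockdown replicate left out 2 fell, and the member that fell was not called without mock replicate 1 or 4. *Dark*, the fly Apaf-1, rose by 1.10 and *mus304*, the fly ATRIP, by 1.90.

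Developmental regulators rose from low levels. Of 8 Hox genes, 5 rose and 1 fell, and 3 rose without mock replicate 2 or 4. High shares were not limited to developmental regulators. At mock means of 0.5 to 2 CPM, 27.3% of all genes past the filter in mock libraries rose. Among protein-coding genes of 20 kb and over at that level the share was 65.6%. *Ubx* measured 1.66, 0.365, 0.425 and 0.617 CPM in mock libraries and 7.94 and 3.93 CPM after knockdown, with a log2 fold change of 2.95 ± 0.61 (SE, edgeR adjusted p = 0.00845). *Antp* measured 1.15, 0.564, 1.45 and 1.31 CPM in mock libraries and 5.61 and 5.49 CPM after knockdown, with a log2 fold change of 2.31 ± 0.41 (SE, edgeR adjusted p = 0.00481). The member that fell was *Dfd*, which measured 13.3, 14.4, 18.03 and 19.6 CPM in mock libraries and 6.97 and 5.67 CPM after knockdown, with a log2 fold change of -1.37 ± 0.25 (SE, edgeR adjusted p = 0.00510). Of 12 tested gap, pair-rule and segment polarity genes, 7 rose and 0 fell by edgeR (1 lower at an unadjusted p below 0.05, 0 by DESeq2, and 1 without knockdown replicate 2). Of the 7 that passed the filter in mock libraries 3 rose, and over the list 4 rose without knockdown replicate 2 or mock replicate 4. *kni*, a gap gene encoding a nuclear receptor-like repressor, measured 1.22, 2.29, 1.24 and 2.39 CPM in mock libraries and 20.8 and 30.4 CPM after knockdown. Knockdown values were several times all mock values, with a log2 fold change of 3.84 ± 0.33 (SE, edgeR adjusted p = 1.34e-04).

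Genes of signaling pathways were called in both directions. For receptor tyrosine kinase signaling, 11 of 36 rose and 0 fell by edgeR (3 lower at an unadjusted p below 0.05, and 1 lower with either knockdown replicate left out), and DESeq2 called 12 higher and 1 lower. *Egfr*, the EGF receptor, measured 4.25, 3.88, 2.80 and 3.16 CPM in mock libraries and 14.8 and 23.7 CPM after knockdown, with a log2 fold change of 2.44 ± 0.27 (SE, edgeR adjusted p = 4.86e-04). For the Hedgehog and BMP pathways, 8 of 26 rose and 3 fell. *dpp*, the main BMP ligand, measured 11.7, 9.92, 9.18 and 11.5 CPM in mock libraries and 27.2 and 60.9 CPM after knockdown, with a log2 fold change of 2.06 ± 0.28 (SE, edgeR adjusted p = 0.00148). The BMP-binding protein gene *cv-2* was already high in mock libraries and measured 1075, 1182, 1029 and 1121 CPM in mock libraries and 3251 and 5490.1 CPM after knockdown. Its knockdown replicates differed, and both were above all mock libraries, with a log2 fold change of 1.99 ± 0.20 (SE, edgeR adjusted p = 2.91e-04). *Dad*, the inhibitory Smad that BMP signaling induces, fell, with 152, 146, 156 and 159 CPM in mock libraries and 74.0 and 92.3 CPM after knockdown and a log2 fold change of -0.88 ± 0.14 (SE, edgeR adjusted p = 0.00276).

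For the Wnt pathway, 8 of 22 rose and 4 fell, or 5 and 4 of 19 that passed the filter in mock libraries. The receptor gene *fz* measured 14.1, 12.3, 11.5 and 13.2 CPM in mock libraries and 40.96 and 89.3 CPM after knockdown, with a log2 fold change of 2.35 ± 0.27 (SE, edgeR adjusted p = 5.64e-04). *pan*, the TCF factor at the end of the pathway, measured 155, 157, 154 and 167 CPM in mock libraries and 86.5 and 79.8 CPM after knockdown. Both knockdown values were lower than every mock value, with a log2 fold change of -0.93 ± 0.12 (SE, edgeR adjusted p = 0.00136). In the Notch list 7 of 25 rose and 5 fell, and 3 fell without knockdown replicate 3 or mock replicate 3 and 1 without mock replicate 4. The target gene *E(spl)mbeta-HLH* rose by 2.11 and the Notch glycosyltransferase gene *fng* by 2.09, while *dx*, a Notch-binding ubiquitin ligase, fell by 0.71 on the log2 scale. Of 23 ecdysone response genes, 11 rose and 1 fell, and without knockdown replicate 3 the counts were 6 and 2. *E23*, an ABC transporter induced by ecdysone, measured 4.88, 4.78, 5.92 and 6.94 CPM in mock libraries and 29.7 and 57.4 CPM after knockdown, with a log2 fold change of 2.95 ± 0.27 (SE, edgeR adjusted p = 2.02e-04). *vri*, a bZIP repressor that also belongs to the circadian clock, measured 575, 578, 543 and 533 CPM in mock libraries and 1061 and 1308 CPM after knockdown, with a log2 fold change of 1.09 ± 0.13 (SE, edgeR adjusted p = 8.80e-04). In the clock list of 9 genes, 3 rose and 2 fell (1 without mock replicate 3 or 4), with *Clk* at 1.39 and *cwo* at -0.57 on the log2 scale.

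Immune and hemocyte genes changed in both directions. Of 28 Toll and Imd genes, 10 rose and 3 fell, or 5 fell without knockdown replicate 2. *Tl*, the Toll receptor, measured 56.4, 58.6, 52.6 and 55.2 CPM in mock libraries and 228 and 492 CPM after knockdown. Knockdown replicate 3 was the higher of the pair, and both exceeded mock, with a log2 fold change of 2.69 ± 0.24 (SE, edgeR adjusted p = 1.86e-04). *PGRP-LE*, an intracellular sensor of bacterial peptidoglycan, measured 94.5, 97.1, 125 and 119 CPM in mock libraries and 63.6 and 46.2 CPM after knockdown, with a log2 fold change of -0.98 ± 0.19 (SE, edgeR adjusted p = 0.00654). Of 12 JAK/STAT genes 4 rose and 1 fell. When knockdown replicate 3 or any 1 mock library was left out 2 rose, and the member that fell was not called without knockdown replicate 3 or mock replicate 1 or 2. The cytokine genes stayed called in each of those fits. *upd3* measured 503, 523, 610.4 and 608 CPM in mock libraries and 1218 and 1759.9 CPM after knockdown, with a log2 fold change of 1.41 ± 0.17 (SE, edgeR adjusted p = 8.12e-04). *upd2* measured 16.4, 17.98, 15.2 and 13.9 CPM in mock libraries and 44.6 and 79.8 CPM after knockdown, with a log2 fold change of 1.97 ± 0.23 (SE, edgeR adjusted p = 6.01e-04).

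Among 21 hemocyte genes 7 rose and 5 fell, with 4 higher without knockdown replicate 2 and 3 lower without knockdown replicate 3, mock replicate 2 or mock replicate 4. *Pxn*, a peroxidase of the basement membrane, measured 281, 285, 209 and 216 CPM in mock libraries and 589.8 and 919 CPM after knockdown, with a log2 fold change of 1.61 ± 0.20 (SE, edgeR adjusted p = 9.87e-04). *Hml*, the hemolectin gene that marks plasmatocytes, measured 255.03, 266, 261 and 255.3 CPM in mock libraries and 504 and 368 CPM after knockdown, with a log2 fold change of 0.75 ± 0.14 (SE, edgeR adjusted p = 0.00658). *vkg*, a collagen IV chain, fell. It measured 44.7, 49.4, 36.1 and 29.6 CPM in mock libraries and 18.1 and 18.2 CPM after knockdown, with a log2 fold change of -1.14 ± 0.23 (SE, edgeR adjusted p = 0.00812). The hemocyte regulators *srp*, given above, and *ush* did not pass the test, although both knockdown values of *srp* were below all mock values. For *ush* the groups overlapped, with 1069, 1039, 1001 and 979.5 CPM in mock libraries and 985 and 1111 CPM after knockdown. Of 24 genes for extracellular matrix and integrins, 10 rose and 0 fell by edgeR (1 lower at an unadjusted p below 0.05, 0 by DESeq2, and 2 without knockdown replicate 3), and 9 of 22 rose among those past the filter in mock libraries. *Ppn*, papilin, rose by 1.26 on the log2 scale.

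Many neural genes rose. Of 71 tested genes for axon guidance and neural recognition, 41 rose and 3 fell, with a median log2 fold change of 1.39. Among the 59 that passed the filter in mock libraries, 32 rose and 3 fell, with a median of 0.98. High shares were not limited to neural genes. Among all protein-coding genes of 20 kb and over past the filter in mock libraries 43.8% rose, against 54.2% of this list. At mock means of 0.5 to 2 CPM 65.6% of such long genes rose. The list members were not matched to these genes by length or level. *Lac*, an immunoglobulin-domain protein of septate junctions and neurons, measured 212, 221, 200.3 and 208 CPM in mock libraries and 417 and 755 CPM after knockdown, with a log2 fold change of 1.48 ± 0.20 (SE, edgeR adjusted p = 0.00146). *rst*, an adhesion protein of the eye and muscle founder cells, measured 8.91, 8.49, 9.11 and 8.49 CPM in mock libraries and 2.16 and 3.02 CPM after knockdown, with a log2 fold change of -1.76 ± 0.26 (SE, edgeR adjusted p = 0.00230). Of 58 receptors for neuropeptides and amines, 30 rose and 1 fell, or 14 and 1 of 38 that passed the filter in mock libraries, with 3 lower over the list when either knockdown replicate was left out. Of 43 ion channel genes, 16 rose and 2 fell, or 13 and 2 of 39 that passed the filter in mock libraries, and 5 fell without knockdown replicate 2. *KCNQ*, a voltage-gated potassium channel, measured 9.87, 9.12, 8.04 and 8.49 CPM in mock libraries and 58.5 and 139.6 CPM after knockdown. Both knockdown values were several times the highest mock value, with a log2 fold change of 3.48 ± 0.29 (SE, edgeR adjusted p = 1.25e-04). *nAChRalpha1*, an acetylcholine receptor subunit with a high level in mock cells, went the other way. It measured 474, 471, 606 and 584 CPM in mock libraries and 232 and 314 CPM after knockdown, with a log2 fold change of -0.97 ± 0.18 (SE, edgeR adjusted p = 0.00614). *Gad1*, which makes the transmitter GABA, measured 1.07, 0.863, 0.957 and 0.849 CPM in mock libraries and 5.77 and 7.41 CPM after knockdown, with a log2 fold change of 2.81 ± 0.32 (SE, edgeR adjusted p = 6.20e-04). *DAT*, the dopamine transporter, measured 1.40, 1.06, 0.673 and 1.04 CPM in mock libraries and 5.37 and 7.23 CPM after knockdown, with a log2 fold change of 2.58 ± 0.37 (SE, edgeR adjusted p = 0.00200). Of 29 neuronal and synaptic genes, 8 rose and 0 fell by edgeR (1 lower at an unadjusted p below 0.05, 0 by DESeq2, and 1 without knockdown replicate 2), with a median log2 fold change of 0.84, and 7 of 26 rose among those past the filter in mock libraries. Among its markers, *nSyb*, the synaptic vesicle synaptobrevin, measured 2.03, 1.69, 2.13 and 1.85 CPM in mock libraries and 3.69 and 1.74 CPM after knockdown, and *elav* and *brp*, given above, did not pass the test, although both knockdown values of *elav* were above all mock values. The part of other cell types in these increases was not tested.

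Of 48 tested cytochrome P450 genes, 8 rose (16.7%, near the 16.5% of all genes) and 11 fell (22.9%, against 11.5%), and among the 42 that passed the filter in mock libraries 4 rose and 11 fell. The number that rose was 5 without knockdown replicate 3 or mock replicate 1 or 2, and 19 fell without knockdown replicate 3. *Cyp4aa1* measured 74.0, 81.6, 64.8 and 73.0 CPM in mock libraries and 324 and 646 CPM after knockdown, with a log2 fold change of 2.73 ± 0.23 (SE, edgeR adjusted p = 1.34e-04). The knockdown libraries held 1 and 6 reads of *Cyp4d14*, and each mock library held 98 to 153. Of 30 glutathione S-transferase genes, 7 rose and 0 fell by edgeR (2 lower at an unadjusted p below 0.05, 0 by DESeq2, and 1 with either knockdown replicate left out). *GstS1* measured 8.47, 7.37, 7.69 and 6.56 CPM in mock libraries and 16.1 and 20.4 CPM after knockdown, with a log2 fold change of 1.28 ± 0.20 (SE, edgeR adjusted p = 0.00290). Core energy pathways had few calls. Of 73 nuclear oxidative phosphorylation genes 5 rose and 1 fell, with 3 higher without mock replicate 1, 2 or 4 and 8 higher and 4 lower without knockdown replicate 3. Of 16 citric acid cycle genes 1 rose, and 1 fell without knockdown replicate 2. Of 17 autophagy genes, all past the filter in mock libraries, 3 fell (17.6%, near the 12.5% of all such genes). Those that fell included *Atg12*, given above, and *Atg3*, a conjugating enzyme of autophagy (-0.76 on the log2 scale).

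**Figure D4:**
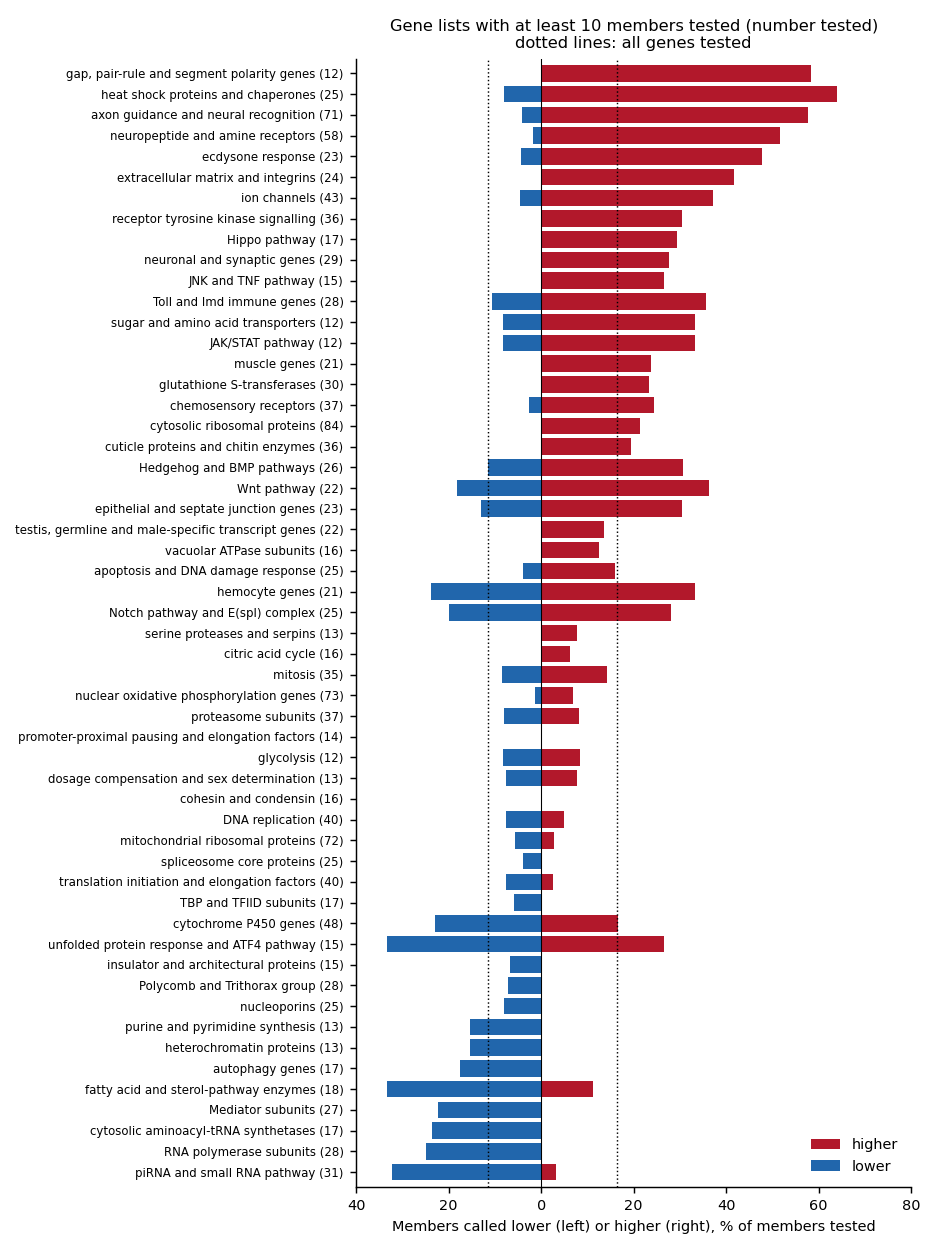
Bars give the share of tested members called higher (right, red) or lower (left, blue) for gene lists with at least 10 tested members, with the number tested in parentheses and dotted lines at 16.5% and 11.5% of all genes. Heat shock, gap and segmentation, axon guidance and receptor lists reach furthest to the right, and the unfolded protein response, fatty acid and sterol, and small RNA lists reach furthest to the left. The bars include members that passed the filter only through the knockdown libraries. Past the filter in mock libraries, 42.9% of gap and segmentation genes, 36.8% of receptors and 45.5% of ecdysone response genes rose.

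Long genes rose more often than short genes. Length here is the span of the gene with introns, over which reads were counted, and the comparison uses protein-coding genes that passed the filter in mock libraries alone. Of 898 genes of 20 kb and over, 393 rose (43.8%) and 69 fell. Of 5410 genes under 5 kb, 335 rose (6.19%) and 744 fell (13.8%). Intermediate genes of 5 to 20 kb had 15.4% higher and 12.3% lower. Long genes had the higher share of rises at each level of nascent RNA. At mock means of 2 to 10 CPM, 60.9% of the long genes and 7.73% of the short genes rose. At 50 to 200 CPM the shares were 28.7% and 3.93%, and at 200 CPM and over 25.0% and 9.07%. The share that fell was lower for long genes at 10 to 50 CPM (5.51% against 16.3%), but not at 50 to 200 CPM (16.4% against 16.0%) or at 200 CPM and over (12.9% against 11.9%). CPM is not divided by length, so that a long gene at a given CPM has fewer reads per base than a short one. Across all alternative fits the share that rose was 17.9% to 46.7% for genes of 20 kb and over and 1.90% to 7.96% for genes under 5 kb. Of the genes described above, *Glut1*, *KCNQ*, *fz*, *Egfr*, *dpp*, *Ubx* and *Antp* are long and rose, while *nAChRalpha1*, *pan* and *rst* are long and fell. *Atg12*, *Trs20* and *Sld5* are short and fell, while *Hsp70Aa*, *Hsp70Ba*, *DnaJ-1* and *RpL30* are short and rose.

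**Figure D5:**
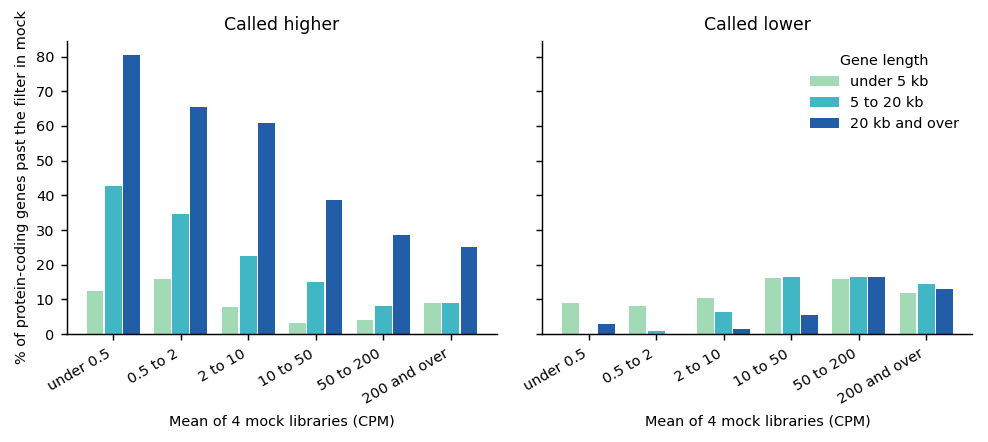
Share of protein-coding genes called higher (left panel) or lower (right panel), by mean mock level in CPM on the horizontal axis and by gene length in color, among genes that passed the expression filter in mock libraries. In every level class the genes of 20 kb and over have the tallest bar for higher calls, for example 60.9% against 7.73% for genes under 5 kb at 2 to 10 CPM.

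Other classes of genes are set beside all tested genes, of which 16.5% rose and 11.5% fell, or 12.8% and 12.5% past the filter in mock libraries. Of 548 noncoding RNA genes 143 rose and 34 fell, and of the 440 that passed the filter in mock libraries 76 rose and 34 fell. Of 9 snoRNA genes 7 rose and of 8 snRNA genes 5 rose, or 5 of 6 and 3 of 6 past the filter in mock libraries. Near-identical copies make these counts uncertain. Of 19 tested genes of the mitochondrial genome 10 rose, and of the 15 past the filter in mock libraries 7 rose. On the X chromosome 13.5% of 1630 genes rose and 13.3% fell, or 11.2% and 14.1% of the 1536 past the filter in mock libraries. On the fourth chromosome 11 of 79 rose and 5 fell (13.9% and 6.33%).

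The same mock libraries were used here as the reference for knockdown of a *mod(mdg4)* isoform with 5 µg of dsRNA (replicates 1 and 2). Its values are set beside these for the groups above. Which mock libraries were made alongside either knockdown is not stated. In 1 model over all 8 libraries, *M1BP* and *mod(mdg4)* knockdown were also contrasted directly, which called 975 genes higher and 739 lower after *M1BP* knockdown among 9598 tested (10.2% and 7.70%). Against mock, that model called 17 genes higher and 32 lower after *mod(mdg4)* knockdown (0.177% and 0.333%). The *mod(mdg4)* knockdown libraries held 11808443 and 7462623 counts, fewer than any mock library, which limits what can be called there. Ribosomal protein genes were lower at the median by log2 -0.67 in the *mod(mdg4)* knockdown libraries, with 7 of 83 lower, and 47 of 83 were higher in *M1BP* than in *mod(mdg4)* knockdown. Heat shock genes had a median of 0.13 and 1 member higher after *mod(mdg4)* knockdown, and 13 of 25 were higher and 1 lower in the direct contrast. Small RNA pathway genes had a median of 0.14 after *mod(mdg4)* knockdown, and 11 of 31 were lower and 2 higher in the direct contrast. *AdamTS-B* stood at 0.01 on the log2 scale in *mod(mdg4)* knockdown against mock, with a direct difference of 4.76 (edgeR adjusted p = 7.75e-06). For *FASN1* the values were 0.00 and -1.44 (edgeR adjusted p = 0.00245), and for *Hsp70Aa* they were 0.48 and 2.04 (edgeR adjusted p = 1.81e-04). For other genes the direct difference missed the threshold, as for *Hsc70-3*, at -0.48 after *mod(mdg4)* knockdown with a direct difference of -0.58 (edgeR adjusted p = 0.0732). *Atf6* likewise had 0.70 and 0.24 (edgeR adjusted p = 0.476). The *mod(mdg4)* gene itself was not analysed here, so those libraries were not checked against their target.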

How the data were processed

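Per the methods, the authors removed low-quality ends of 50 bp single-end reads (below quality 20) and reads under 25 bases using cutadapt 2.7. Alignment to dm6 used HISAT2 2.1.0 and SAMtools 1.9, and they counted sense-strand reads over whole genes, introns included, with featureCounts 1.6.4. Their own comparisons used DESeq2 1.22.1. The authors deposited raw counts per gene without normalization for 17771 genes, of which 17515 have the same coordinates in the annotation used here.

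Samples were grouped by labels. The 2 columns that share a heading were not used, and no column carried the name of *M1BP* knockdown replicate 1. Tests used edgeR 4.0.16 under R 4.3.3 (TMM scaling, default expression filter near 0.394 CPM, quasi-likelihood test, no block, Benjamini-Hochberg adjusted p below 0.05), and standard errors were obtained from each log2 fold change and its F statistic. Total counts were 7462623 to 29680851 over the 8 libraries analysed, the lowest in *mod(mdg4)* knockdown replicate 2. A floor of 3 counts covers counting error only. The test was checked on simulated counts. Alternatives were DESeq2 1.42.0 without the filter, other scalings and filters, a 1.5-fold threshold, an adjusted p below 0.01, either mock pair alone, a model with the *mod(mdg4)* libraries, a replicate block and each library left out. Alternatives added after seeing the data were a crossed block and the length classes under each setting.

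The genes compared and the 59 lists, with 2137 distinct genes, were chosen with earlier results of these data known. Of 1000 symbols named in the lists, 26 were not matched. Genes were named by rule: the target and insulator partners, the 8 largest increases and decreases among called genes averaging 100 or more normalized counts, with both knockdown libraries outside the mock range (and 3 each way among genes with only a CG or CR number), up to 4 called members per list and direction, all members of lists of 8 or fewer genes, cell type markers, and for sequences the 6 called genes per direction with the smallest p and a Motif 1 core, outside 2R. Not all are described, and 1 gene of the sequence set is not reported here. The Motif 1 letters come from the study's own match list, read in part, because the planned search of RefSeq promoters was not run.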

Additional observations from a re-analysis of the deposited data

Results flagged for a closer look

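*Clk*, which encodes the activator of the circadian clock, had 1 mock library apart from the others, at 4.145 CPM against 3.105 to 3.252 CPM in the other mock libraries, a gap of 0.859 of the range. Both knockdown libraries were above all 4. Such a gap is expected by chance in about 1 in 20 groups of this size.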

How the results depend on the processing

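Against 1574 genes higher and 1097 lower, the counts were 972 and 227 when a 1.5-fold change was tested, 780 and 322 at an adjusted p below 0.01, 750 and 505 with mock replicates 1 and 2 only, and 796 and 553 with mock replicates 3 and 4 only. In 1 model with the *mod(mdg4)* libraries 1008 were higher and 774 lower. Leaving out 1 library gave 1085 to 1790 higher and 582 to 1437 lower. DESeq2 gave 1751 and 1275. No gene called in both fits was called in opposite directions under any of these alternatives or those below. Upper-quartile scaling moved the median log2 fold change by 0.08 and gave 1743 higher and 843 lower (67.4% of calls higher, against 58.9%), and scaling by library size alone moved it by -0.10 and gave 1399 and 1430 (49.5% higher). The cause of these changes was not tested.

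Whether replicate numbers pair the samples could not be settled. Deviations of same-numbered libraries correlated at -0.13 and -0.19, with 2 pairs. With 2 knockdown libraries, their deviations from the group mean are equal with opposite sign. The crossed values of 0.13 and 0.19 therefore follow from the others. A replicate block gave 466 genes higher and 100 lower, and a crossed block, chosen after seeing the data, gave 835 and 560. Of the 85 genes whose values are given, 37 came out weaker with the replicate block and 6 with the crossed block. The M1BP log2 fold change was not called with the block (adjusted p = 0.139), with mock replicates 1 and 2 only (0.0934) or when a 1.5-fold change was tested (0.161), all by edgeR. The planned share of promoters with the Motif 1 core was not run. The knockdown libraries, with 13181160 and 11312004 counts, limit what can be seen at low levels.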
